A study of Mus musculus with 6 samples.

Results

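The genes described here are 10 mouse genes for chaperones, co-chaperones and protein disulfide isomerases of the endoplasmic reticulum (ER), picked by symbol from the 56636 gene rows of a deposited expression table. They are Hspa5, Hyou1, Dnajb11 and Dnajc3 of the HSP70 system, Hsp90b1 of the HSP90 family, the lectins Calr and Canx, and the disulfide isomerases Pdia3, Pdia4 and Pdia6. All 10 were found once each, and all 10 averaged 1 TPM or more over the libraries, as did 12092 genes in all. TPM is transcript abundance corrected for transcript length and scaled to a fixed total per library, so that levels of different genes can be compared but sequencing depth is unknown. RAW264.7, a mouse macrophage line labelled wild type, was given a compound abbreviated in the labels as 25-HC (3 libraries) or vehicle (3 libraries), in both cases for 24 h. The labels used here give no dose and do not say whether the libraries came from separate cultures, so each p-value describes the spread of these 6 libraries alone, and that spread could be technical. In bulk RNA, fewer cells of a kind and less RNA per cell cannot be told apart.

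Proteins that enter the secretory pathway fold in the ER lumen. The HSP70 protein BiP, encoded by Hspa5, holds unfolded chains with the help of J-domain proteins, calnexin and calreticulin hold glycoproteins by their sugars, and disulfide isomerases form and rearrange cysteine bonds. When unfolded protein builds up, the sensors ATF6, IRE1 and PERK raise the transcription of many of these genes, in part through a promoter sequence named the ER stress response element (ERSE). In macrophages the HSP90 protein of the ER, GRP94, is known as the chaperone of Toll-like receptors and integrins, and calreticulin as a surface signal for phagocytosis.

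The sequences below are shown because this element is what the promoters of most of these genes share. The genes were picked by symbol, but the element is already known from genes of this kind. Its frequency among them is thus a description and no independent test. RefSeq windows of 300 bases (250 before to 50 after the annotated start, build GRCm38.p6) were matched for 9 of the 10 genes, all but Hyou1. In 7 of these 9 windows, bases after the annotated start were found near the beginning of a GENCODE M21 transcript of the same gene. Searched on both strands, the ERSE (CCAAT, then 9 bases of any kind, then CCACG) was present in the windows of 6 of the 9 genes (66.7%), namely Hspa5, Hsp90b1, Calr, Canx, Pdia6 and Dnajc3, against 39 of 32851 windows over all genes (0.119%). Hsp90b1 held 2 matches. The related ERSE-II (ATTGG, then 1 base of any kind, then CCACG) was found in Dnajb11, against 12 of the 32851 windows (0.0365%), and neither was found in Pdia3 or Pdia4. Both motifs share the CCACG block but need the other block at different spacing and in opposite orientation (CCAAT or ATTGG). No match of one overlapped a match of the other in these genes. Each stretch is written 5′ to 3′ on the strand of the gene, with the paired blocks of the motif in capitals.
Hspa5 (chr2:34772000-34772068, + strand): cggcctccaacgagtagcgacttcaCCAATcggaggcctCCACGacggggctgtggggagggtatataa
Hsp90b1, upstream match (chr10:86705613-86705681, - strand): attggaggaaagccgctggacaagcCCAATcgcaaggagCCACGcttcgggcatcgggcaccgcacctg
Hsp90b1, match nearer the start (chr10:86705508-86705576, - strand): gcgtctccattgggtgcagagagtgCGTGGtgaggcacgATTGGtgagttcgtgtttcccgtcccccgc
Calr (chr8:84847050-84847118, - strand): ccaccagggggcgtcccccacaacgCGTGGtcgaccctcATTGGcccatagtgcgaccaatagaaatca
Canx (chr11:50325775-50325843, - strand): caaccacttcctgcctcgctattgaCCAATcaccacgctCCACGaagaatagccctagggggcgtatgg
Dnajb11, ERSE-II (chr16:22857843-22857871, + strand): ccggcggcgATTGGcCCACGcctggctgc
The matches of Calr and of the Hsp90b1 site nearer the start were on the reverse strand, so their blocks read CGTGG and ATTGG. A match is a run of letters in a reference window and no evidence of factor binding in these cells, and a window with no match says only that these letters are not in it.

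**Figure D1:**
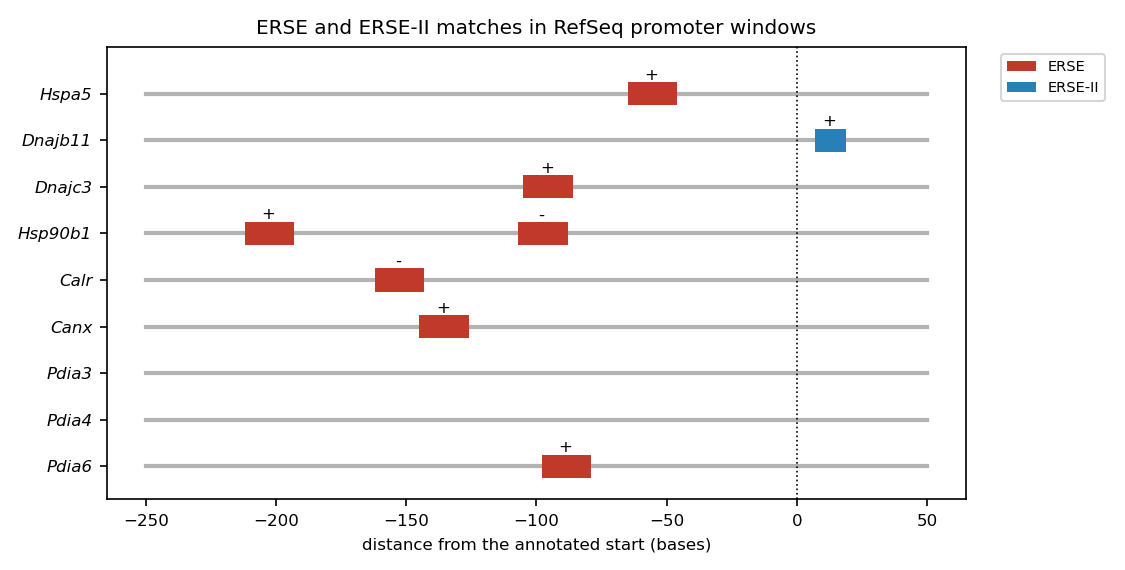
Positions of ERSE (red) and ERSE-II (blue) matches in the RefSeq promoter windows of 9 genes, in bases from the annotated start (dotted line), with the strand of the match relative to the gene. The ERSE matches began between 212 and 65 bases before the start (positions -212 to -65) and the ERSE-II of Dnajb11 began 7 bases after it, while Pdia3 and Pdia4 showed neither.

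The groups differed in spread before any gene was compared. The 25-HC libraries had 11971 to 12005 genes at 1 TPM or more, against 11238, 9492 and 11994 in vehicle 1, 2 and 3. Set against the averaged 25-HC libraries, the longest sixth of transcripts stood at a median log2 difference of -0.78 in vehicle 1, -1.63 in vehicle 2 and 0.039 in vehicle 3, and the shortest sixth at 0.18, -0.051 and 0.051. The macrophage markers checked (10 genes, of which Mertk was at 0 in every library) summed to 2537 to 2558 TPM in 25-HC and 1735 to 2595 TPM in vehicle. Singly, 5 of the 10 were higher in all treated libraries than in all vehicle libraries (Adgre1, Fcgr1, Ptprc, Itgam and Lyz2), and Cd68 was lower by a small gap. Of all genes tested, 22.6% were likewise higher and 8.1% lower in all treated libraries. Itgam was at 69.4, 62.4 and 71.4 TPM in 25-HC, against 12.5, 0.53 and 51.0 TPM in vehicle. Cd14 and Spi1 were lower in the treated libraries than in vehicle 1 and 3 and higher than in vehicle 2. Fibroblast, lymphocyte, neutrophil and epithelial lists summed to at most 2.50 TPM in any 25-HC library and 2.57 TPM in any vehicle library. The part of transcript length or of vehicle 2 in the results below was not tested beyond the values given beside them.

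Against the 3 vehicle libraries, 9 of the 10 genes had a higher mean in 25-HC and Calr a lower one, but no gene passed the test. Limma on log2(TPM + 1), adjusted over all 12092 genes, called 0 of the 10 at 0.05, against 0.00827% of all genes called higher and 0% called lower. Hsp90b1 alone had an unadjusted p under 0.05, a level that 11.2% of all genes reached. Each 25-HC library was above each vehicle library, called separated here, for 6 of the 10 genes: Hspa5, Hsp90b1, Canx, Pdia3, Pdia6 and Dnajc3. Over all genes 22.6% were separated upward and 8.1% downward, and none of the 10 was separated downward. With the lowest 25-HC library at least 5% above the highest vehicle library, a limit chosen after seeing the data, 4 genes were left (Hspa5, Hsp90b1, Canx and Dnajc3), against 17.7% of all genes. The median log2 difference of the 10 genes was 0.98, against 0.52 over all genes. Without vehicle 2 these medians were 0.34 and 0.13, and against vehicle 3 alone 0.056 and -0.071. Limma called none of the 10 without vehicle 2 (0.0744% of all genes higher and 0.0331% lower) or without vehicle 3 (5.55% higher and 0.422% lower). Without vehicle 3, 9 of the 10 were separated upward, as were 59.5% of all genes. All 10 genes were lowest in vehicle 2, as were 73.3% of the genes tested.

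Within the HSP70 system, BiP and its nucleotide exchange factor were the genes with larger differences to the vehicle mean. Hspa5 (ENSMUSG00000026864) was at 673, 676 and 666 TPM in 25-HC, against 449, 112 and 602 TPM in vehicle 1, 2 and 3. The groups did not overlap, and the 25-HC mean was 1.12 times vehicle 3 and 5.99 times vehicle 2 (log2 difference 1.10, SE 0.61, limma adjusted p = 0.389). Hyou1 (ENSMUSG00000032115), which encodes the exchange factor GRP170, was at 167, 158 and 168 TPM in 25-HC, against 78.9, 18.1 and 167 TPM in vehicle. Here vehicle 3 lay inside the range of the treated libraries, and the log2 difference was 1.38 (SE 0.76, limma adjusted p = 0.389), against -0.023 to vehicle 3 alone. Dnajb11 (ENSMUSG00000004460), a J-domain co-chaperone that hands clients to BiP, was at 139, 137 and 137 TPM in 25-HC, against 124, 57.2 and 154 TPM in vehicle. All 3 treated libraries were above vehicle 1 and 2 and below vehicle 3 (log2 difference 0.42, SE 0.38, limma adjusted p = 0.476), and the difference was -0.21 after the median-ratio rescaling described below. Dnajc3 (ENSMUSG00000022136), another J-domain protein, also known as an inhibitor of eIF2-alpha kinases, had the lowest levels of the set, at 19.9, 20.1 and 18.9 TPM in 25-HC, against 12.0, 7.77 and 16.1 TPM in vehicle. It was separated, at 1.22 times vehicle 3 (log2 difference 0.72, SE 0.32, limma adjusted p = 0.389). After median-ratio rescaling Dnajc3 overlapped between groups, at a log2 difference of 0.13.

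Hsp90b1 (ENSMUSG00000020048) had the widest gap between its lowest treated and its highest vehicle library. It was at 101, 104 and 99.7 TPM in 25-HC, against 47.3, 15.1 and 61.0 TPM in vehicle. The lowest treated library was 1.63 times vehicle 3, its highest vehicle library, although Canx lay further above vehicle 1 and vehicle 2. Its mean was 102 ± 2.04 TPM in 25-HC and 41.1 ± 23.6 TPM in vehicle (SD, n = 3 each), a 2.47-fold difference. The log2 difference was 1.50 with an SE of 0.52 (limma adjusted p = 0.389, unadjusted p = 0.0259), and it lay at the 93.6th percentile of all genes. The difference was 0.88 after median-ratio rescaling (each library divided by its median ratio to the mean profile), 0.89 after subtraction of a trend on transcript length, 0.91 without vehicle 2 and 0.73 against vehicle 3 alone. Hsp90b1 was separated upward in each of these settings, which moved the median over all genes to 0.0085, 0.0026, 0.13 and -0.071. The share of all genes separated upward was 18.7% after median-ratio rescaling, 17.1% after length correction, 23.6% without vehicle 2 and 28.5% against vehicle 3. Without vehicle 2 the limma adjusted p was 0.089.

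The lectins calnexin and calreticulin, which bind the same kind of glycan, did not go together. Canx (ENSMUSG00000020368), the membrane-bound lectin, was at 215, 212 and 223 TPM in 25-HC, against 80.0, 13.9 and 182 TPM in vehicle. It had the largest log2 difference of the set, 1.85 with an SE of 0.87 (limma adjusted p = 0.389), but the 25-HC mean was 15.6 times vehicle 2 and 1.19 times vehicle 3. Calr (ENSMUSG00000003814), the soluble lectin and calcium store of the lumen, was at 752, 788 and 757 TPM in 25-HC, against 921, 573 and 1039.7 TPM in vehicle. The treated libraries lay below vehicle 1 and 3 and above vehicle 2, so the groups overlapped as deposited (log2 difference -0.097, SE 0.25, limma adjusted p = 0.79). After median-ratio rescaling no 25-HC library reached the lowest vehicle library, with a log2 difference of -0.73 (SE 0.29, limma adjusted p = 0.297), and 17.9% of all genes were separated downward there. Subtracting the length trend gave -0.55, with separation downward in 18.7% of all genes, and leaving out vehicle 2 gave -0.35, with 16.9% of all genes separated downward.

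The 3 disulfide isomerases were close to vehicle 3. Pdia6 (ENSMUSG00000020571) was at 567, 576 and 570 TPM in 25-HC, against 469, 160 and 543 TPM in vehicle. Pdia3 (ENSMUSG00000027248), the isomerase that works on glycoproteins with calnexin and calreticulin, was at 281, 289 and 273 TPM in 25-HC, against 208, 63.9 and 273 TPM in vehicle. The lowest treated library of Pdia3 was 1.002 times vehicle 3 and that of Pdia6 1.04 times, so both counts as separated rest on small gaps. Pdia4 (ENSMUSG00000025823) was at 175, 180 and 180 TPM in 25-HC, against 117, 16.5 and 175 TPM in vehicle, and it overlapped by a lowest treated value of 0.999 times vehicle 3. The log2 differences were 0.73 (SE 0.47) for Pdia6, 0.86 (SE 0.53) for Pdia3 and 1.33 (SE 0.84) for Pdia4, with limma adjusted p-values of 0.394 for Pdia3 and 0.395 for both others.

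**Figure D2:**
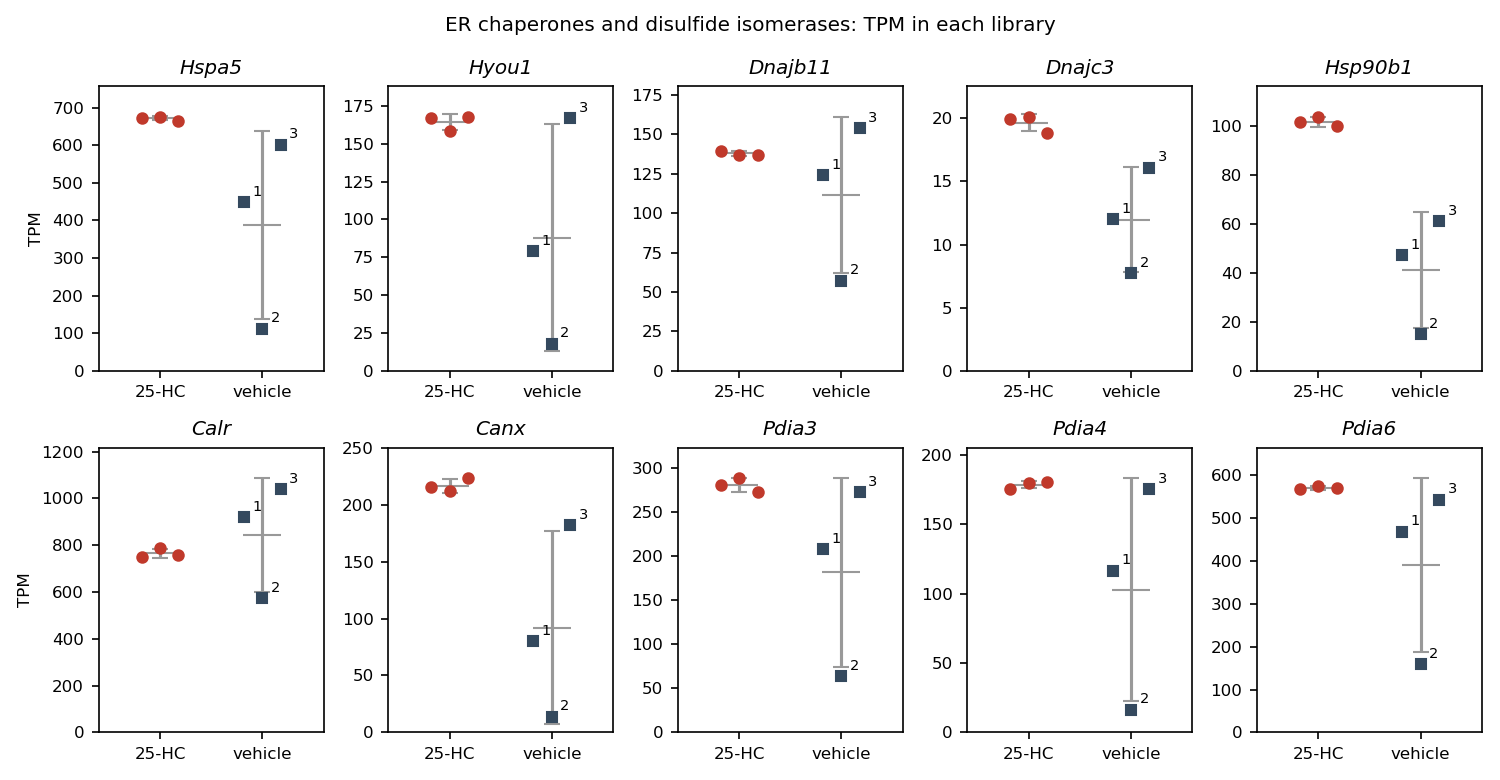
TPM of each gene in the 3 libraries with 25-HC (red circles) and the 3 with vehicle (dark squares, numbered by replicate); horizontal lines and bars are the mean and SD (n = 3), and each panel has its own scale starting at 0. The treated libraries sit close together in every panel, vehicle 2 is lowest in all 10, and vehicle 3 is near or inside the treated range for Hyou1, Pdia3 and Pdia4.

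The treated libraries varied little among themselves, with a coefficient of variation of 0.777% (Pdia6) to 3.45% (Dnajc3), against 28.8% (Calr) to 92.1% (Canx) among vehicle libraries. The order of levels in all 3 treated libraries was Calr, Hspa5, Pdia6, Pdia3, Canx, Pdia4, Hyou1, Dnajb11, Hsp90b1 and Dnajc3. No neighbours in that order overlapped among the treated libraries, while every pair of neighbours overlapped over the vehicle libraries. Vehicle 3 had the same order, and vehicle 1 and 2 put Pdia6 above Hspa5 and Dnajb11 above Canx, Pdia4 and Hyou1. Calr was first and Dnajc3 last in all 6 libraries. Among all tested genes, Hspa5 stood at the 97.9th to 98th percentile of its own library in 25-HC and at the 92.5th to 97.8th in vehicle. The median over the 10 genes of the difference in mean percentile was 2.75 points.

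Vehicle 3 was the vehicle library without the length trend, and the 25-HC mean was within 1.1 times of it for 4 of the 10 genes (Pdia3, Pdia4, Pdia6 and Hyou1). It was 1.12 to 1.67 times vehicle 3 for Hspa5, Canx, Dnajc3 and Hsp90b1, and 0.736 and 0.896 times for Calr and Dnajb11. Every treated library was above vehicle 3 for 6 of the 10 genes and below it for 2, against 28.5% and 45.7% of all genes. With vehicle 3 as the only vehicle library, limma called Hsp90b1 (log2 difference 0.73, adjusted p = 0.0167) and Hspa5 (0.16, adjusted p = 0.0446) higher and Calr (-0.44, adjusted p = 0.0272) lower. In that fit 4.52% of all genes were called higher and 6.33% lower. It assumes that the lone vehicle library varies like the treated ones, which the other 2 vehicle libraries did not.

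**Figure D3:**
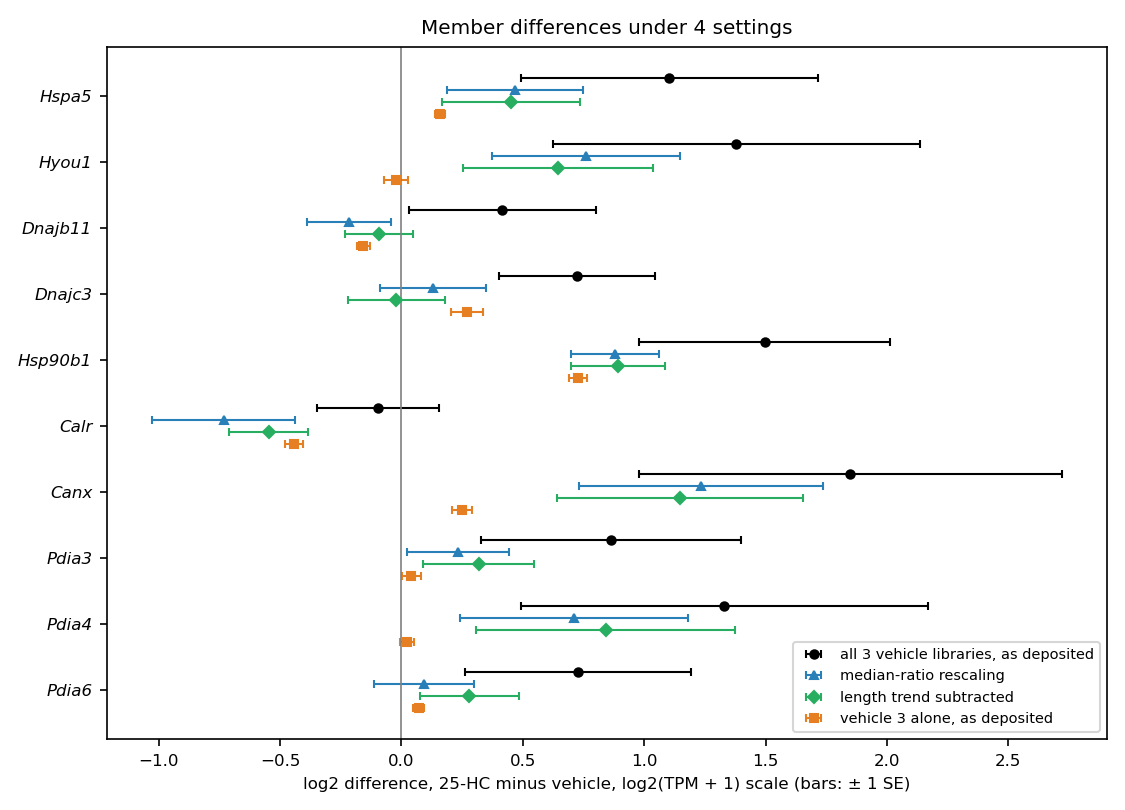
Fitted log2 difference (25-HC minus vehicle, log2(TPM + 1) scale) of each gene with its SE as deposited, after median-ratio rescaling, after subtraction of the length trend, and against vehicle 3 alone. Hsp90b1 stays between 0.73 and 1.50 and Calr between -0.73 and -0.097, while Canx spreads from 0.25 to 1.85 and Dnajb11 lies on both sides of 0.

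Shares within a library do not depend on a factor that scales the whole library, but they keep any trend on transcript length. The 10 genes summed to 3091, 3139 and 3093 TPM in 25-HC, against 2506, 1037 and 3213 TPM in vehicle, with overlap (exact two-sided permutation p = 0.4). The smallest p this test can give with 3 libraries against 3 is 0.1. Of the 10 shares in that sum, 7 did not overlap between groups (exact permutation p = 0.1 each), a count not made over all genes. Hspa5, Hsp90b1, Canx, Pdia3 and Pdia4 were higher in 25-HC and Calr and Dnajb11 lower. Centred instead on the mean log2 level of the 10 genes, a setting added after seeing the data, Hsp90b1 and Canx were separated upward. Calr, Pdia3, Pdia6 and Dnajb11 were separated downward there, so Pdia3 went the other way than by share. These counts were likewise not made over all genes. Centring on the 10 genes themselves means that some must fall where others rise. Shares add up to the whole, so a lower share of Calr by itself raises the others. Calr made up 24.3%, 25.1% and 24.5% of that sum in 25-HC, against 36.7%, 55.2% and 32.4% in vehicle (exact permutation p = 0.1). Hsp90b1 made up 3.28%, 3.30% and 3.22% in 25-HC, against 1.89%, 1.45% and 1.90% in vehicle (exact permutation p = 0.1). The share of Hsp90b1 differed from that in vehicle 3 by 1.72 times, the most of the 10 on the higher side. Without Calr the other 9 genes summed to 2339, 2351 and 2336 TPM in 25-HC, against 1585, 465 and 2173 TPM in vehicle, so that the treated mean was 1.08 times vehicle 3.

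Ratios between genes within a library were picked after their values were seen. There were 3.49, 3.72 and 3.39 Calr transcripts per Canx transcript in 25-HC, against 11.5, 41.3 and 5.71 in vehicle (exact permutation p = 0.1). Hsp90b1 stood at 0.151, 0.153 and 0.150 per Hspa5 in 25-HC, against 0.105, 0.134 and 0.101 in vehicle (exact permutation p = 0.1). Dnajb11 per Hspa5 was lower, at 0.207, 0.202 and 0.206 in 25-HC, against 0.277, 0.510 and 0.255 in vehicle (exact permutation p = 0.1). Hyou1 per Hspa5 and Pdia4 per Pdia6 overlapped between groups (exact permutation p = 0.4 each). Each library was also centred on the mean log2 level of the 14 translocon and signal peptidase genes, which act where new proteins enter the ER. This left Hspa5, Hsp90b1 and Canx separated upward and Calr and Dnajb11 downward. Under that centring 11% of all genes were separated upward and 26.8% downward. Transcript lengths were 2184 bases for Calr, 2175 for Pdia6, 3222 for Hsp90b1 and 4281 for Canx (longest transcript in GENCODE M21). Over the 10 genes, length and log2 difference had a Spearman rho of 0.43, a description of genes that share the same 6 libraries. Calr and Pdia6 are nearly equal in length, and their level in vehicle 3 was 1.82 times that in vehicle 2 for Calr and 3.40 times for Pdia6. Over all 10 genes, the rho of length with that ratio was 0.28, and with the ratio of 25-HC to vehicle 3 it was 0.49. The part of length in these differences was not tested.

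**Figure D4:**
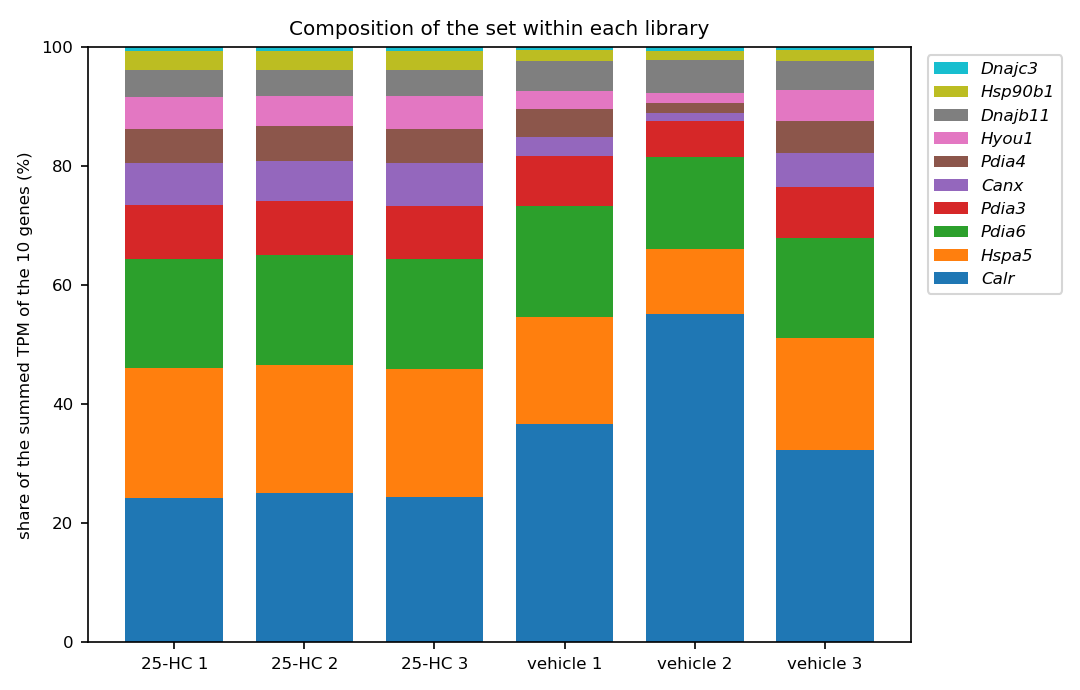
Share of each gene in the summed TPM of the 10 genes, for the 3 libraries with 25-HC and the 3 with vehicle (stacked to 100%). Calr takes 24.3% to 25.1% in the treated libraries and 32.4% to 55.2% in vehicle, and Canx takes 6.74% to 7.22% in the treated libraries and 1.34% to 5.67% in vehicle.

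Other genes of ER folding were grouped into 9 lists by role, 103 genes in all, of which 90 had a mean of at least 1 TPM. Limma called none of the 90 in either direction, and 14 had an unadjusted p under 0.05, as did 11.2% of all genes. Of the 90, 38 were separated upward (42.2%, against 22.6% of all genes) and 3 downward (Erp29, Sil1 and Sec11c, against 8.1%). The same shares of all genes stand beside the list counts below. After median-ratio rescaling 27 of the 90 were separated upward and 5 downward, against 18.7% and 17.9% of all genes. That rescaling put the list medians of disulfide oxidation, BiP and GRP94 cofactors, KDEL receptors and translocon genes below 0, at -0.084, -0.082, -0.077 and -0.048. A gene enters these counts only through its mean over all 6 libraries, which a low gene passes more easily when it is higher in 1 group.

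The unfolded protein response list, of sensors, transcription factors and their targets, had the largest median of the 9, at 1.38 over 13 genes with 10 separated upward. The median was 0.72 without vehicle 2 and 0.36 against vehicle 3 alone. Atf4, a transcription factor translated when PERK is active, was at 559, 572 and 567 TPM in 25-HC, against 225, 30.0 and 323 TPM in vehicle (log2 difference 2.11, SE 0.85, limma adjusted p = 0.389), and is named here after its values were seen. Ddit3, the gene of the stress-induced transcription factor CHOP, had 2 overlapping rows, and no source used here says how reads were split between them. The row whose longest transcript is 969 bases (ENSMUSG00000025408) was at 130, 145 and 133 TPM in 25-HC, against 52.0, 88.7 and 40.5 TPM in vehicle (log2 difference 1.24, SE 0.32, limma adjusted p = 0.389). Here vehicle 2 was the highest vehicle library. The other row (ENSMUSG00000116429), annotated with a transcript of only 105 bases, for which TPM is uncertain, had a log2 difference of 2.88 (SE 0.84), the largest of the list. The list median was 1.36 with the longer row in place of the short one, a swap made after seeing the data. Creb3, an ER-membrane transcription factor, had the smallest difference of the list, at 0.28.

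Cofactors of the ER HSP70 and HSP90 proteins had a median of 0.52 over 15 genes, near that of all genes, with 6 separated upward and 1 downward. Sil1, an exchange factor of BiP like Hyou1, was the one downward, at 21.3, 19.8 and 20.7 TPM in 25-HC, against 31.7, 30.8 and 30.7 TPM in vehicle. Its vehicle libraries were even, unlike those of the 10 chaperones (log2 difference -0.57, SE 0.22, limma adjusted p = 0.389). Dnajb9, a J-domain protein that represses IRE1, had the largest difference of this list, at 7.97, 8.75 and 7.69 TPM in 25-HC, against 2.72, 0.90 and 5.97 TPM in vehicle. Manf, a secreted ER-stress protein that binds BiP, was the most abundant, at 671, 683 and 702 TPM in 25-HC, against 662, 334 and 533 TPM in vehicle, and was separated by a small gap to vehicle 1.

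The rest of the disulfide isomerase family had a median of 0.75 over 13 genes, with 6 separated upward and 1 downward. P4hb, the founding member of the family, was at 561, 603 and 585 TPM in 25-HC, against 491, 289 and 593 TPM in vehicle, with overlap. Dnajc10, a disulfide reductase with a J domain, had the largest difference, at 13.0, 14.2 and 15.4 TPM in 25-HC, against 5.10, 1.51 and 8.60 TPM in vehicle, and was 1.65 times vehicle 3. Erp29, a relative without a redox-active site, was lower in each treated library, at 182, 196 and 195 TPM in 25-HC, against 291, 263 and 197 TPM in vehicle. Its gap to vehicle 3 was small, and none of the 3 passed the test.

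Genes of disulfide oxidation had a median of 0.48 over 7 genes with 1 separated, the oxidase Ero1b, at 22.9, 22.1 and 22.2 TPM in 25-HC, against 10.2, 3.60 and 20.2 TPM in vehicle. Prdx4, an ER peroxiredoxin, and Vkorc1, the vitamin K epoxide reductase, had log2 differences of 0.29 and -0.15. Ero1b and, among the BiP cofactors, Creld2 were the only other genes of the 9 lists with an ERSE in their RefSeq window, and Herpud1 of the unfolded protein response list held an ERSE-II. Glycan trimming genes had a median of 0.66 over 10 genes with 2 separated upward; Prkcsh, a glucosidase subunit, had a difference of -0.11 and Lman1, a cargo lectin, one of 1.39 with overlap. Prolyl isomerases had a median of -0.16 over 5 genes. Ppib, the most abundant of them, was at 961, 1011 and 972 TPM in 25-HC, against 1175, 1751 and 916 TPM in vehicle, and Fkbp2 had a difference of -0.48. Only Ppic was separated upward there, at a difference of 1.10.

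KDEL receptors, which return chaperones that leave the ER, were listed together with Surf4. This list had a median of 0.55 over 3 genes, with Kdelr2 (0.53) and Surf4 (1.04) separated upward. Translocon and signal peptidase genes had a median of 0.59 over 14 genes, with 9 separated upward. Sec61b was at a log2 difference of 0.57, Ssr3 at 1.75 and Sec61g at -0.23. Cytosolic relatives of the ER chaperones had a median of 0.62 over 10 genes, which was -0.21 against vehicle 3 alone. Hspa8, the constitutive cytosolic HSP70, was at 1513, 1600 and 1512 TPM in 25-HC, against 1648, 492 and 1726 TPM in vehicle. Hsp90aa1, a cytosolic relative of Hsp90b1, was the only one separated upward, at 24.1, 23.1 and 23.1 TPM in 25-HC, against 8.93, 6.39 and 13.6 TPM in vehicle (log2 difference 1.26, SE 0.33, limma adjusted p = 0.389). Hspa1b was barely detected, at 0.78, 1.34 and 1.24 TPM in 25-HC, against 1.52, 0.33 and 2.74 TPM in vehicle.

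**Figure D5:**
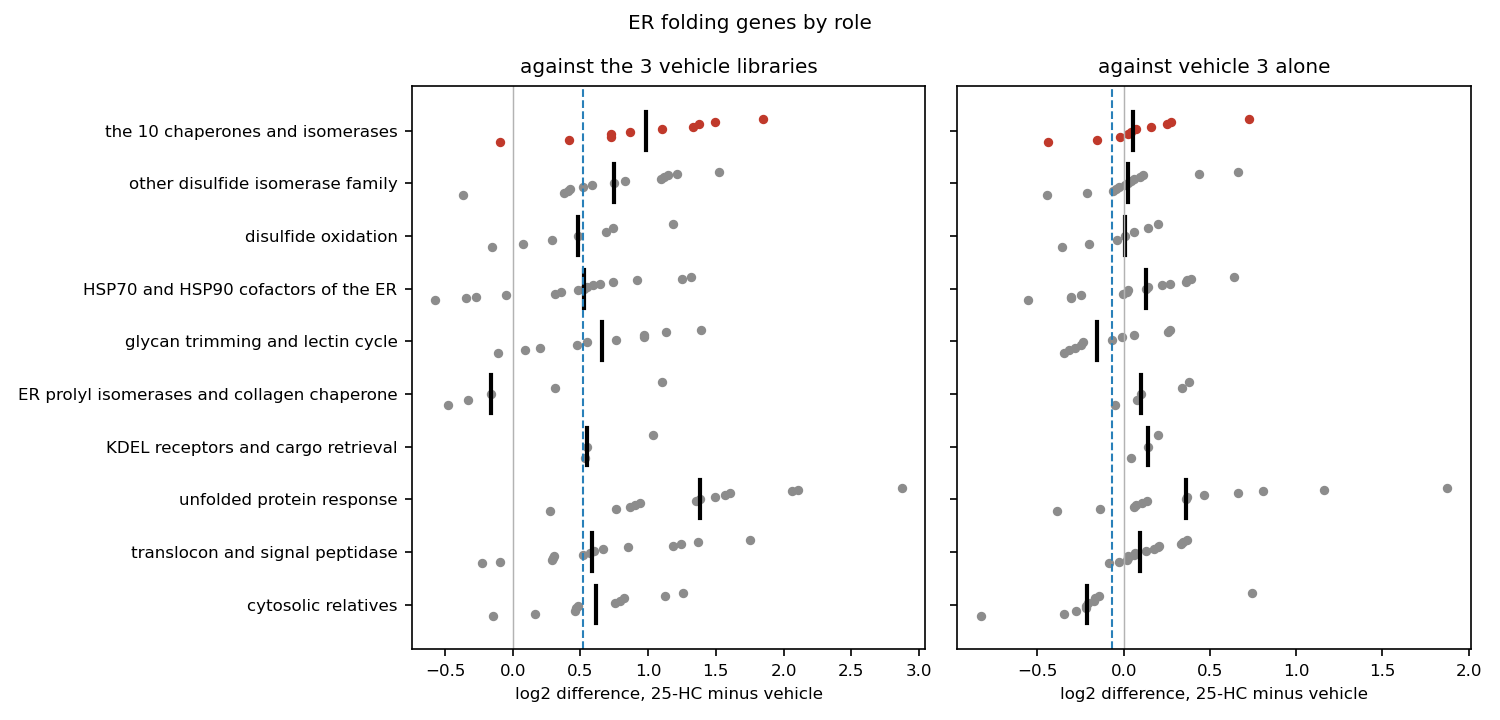
Log2 difference (25-HC minus vehicle) of each gene in the set of 10 (red) and in 9 lists of other ER folding genes (grey), with list medians (black bars) and the median of all genes (dashed line), against the 3 vehicle libraries (left) and vehicle 3 alone (right). The median of the 10 genes is 0.98 on the left and 0.056 on the right, where all genes stand at 0.52 and -0.071; the point furthest right among the unfolded protein response genes is the 105-base Ddit3 row.

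The mean profile of the 10 genes over the 6 libraries was shared by many others. Among the 6493 further genes that averaged 10 TPM or more, 1088 had a Pearson r above 0.99 with it, where all points share the same 6 libraries and the low value of vehicle 2. The 5 most alike were Slc30a5, Ctsa, Atxn2l, Srrm2 and Sirt2 (r of 0.9996 to 0.9999). Of the 10 genes, Hspa5 followed the mean of the other 9 most closely (r = 0.998) and Calr least (r = 0.655).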

How the data were processed

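RNA of 6 RAW264.7 libraries was sequenced after TruSeq library preparation, per the labels' protocols. HISAT2, StringTie, RSEM and the mouse build GRCm39 are named, with no version or role, per the submitters' processing notes; annotation release and strand are likewise not given in the sources used. As deposited by the authors, values are TPM per gene and library, summing to 1000000 or 1000001, beside 11 empty columns. No counts or depths were in hand, so no counting interval was given.

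The 12092 genes averaging 1 TPM or more went, as log2(TPM + 1), into limma 3.58.1 under R 4.3.3 (eBayes with trend, two-sided, Benjamini-Hochberg, 0.05), using all 6 libraries and no block. Log2 differences understate changes of low genes. Where a symbol had several rows, the highest mean kept it. Single values used exact permutation. Limma was tested on simulated data. The outcome is not given, and nothing is concluded from it about groups with spread as unequal as in these libraries. The length trend was a loess fit per library (span 0.75, degree 2) over 11132 genes (92.1%) with a GENCODE M21 length. Alternatives were other pseudocounts, filters, scalings, variance models, a replicate block and left-out libraries. Promoter windows came from RefSeq (GRCm38.p6), another build than that of the files. Other steps ran in scipy 1.17.1, numpy 2.4.6, matplotlib 3.10.9 and pandas 2.3.3 under Python 3.11.15.

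The 10 genes and all lists were chosen with earlier results of these data known. Named from each list were the most abundant gene and those with the largest and smallest log2 difference, and from all genes the 5 most alike in profile.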

Additional observations from a re-analysis of the deposited data

How the results depend on the processing

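None of the 10 genes was called in 17 of the 18 planned settings tried in place of the deposited fit; against vehicle 3 alone, 3 were called and the median log2 difference of the 10 was 0.056. In these settings 6 or 7 genes were separated upward, beside 15.4% to 28.5% of all genes, except without vehicle 3, where 9 were, beside 59.5%. Which genes these were changed. Dnajc3 was not among them after median-ratio rescaling, quantile normalization or length correction. Median-ratio rescaling also lost Pdia6 and added Pdia4 and Hyou1. Calr and Dnajb11 were separated downward against vehicle 3, with length correction and with median-ratio rescaling, and Calr without vehicle 2. Leaving out each library in turn gave medians of 0.34 (without vehicle 2) to 1.42 (without vehicle 3) and differences in percentile of 1.28 to 3.65. Dnajb11 turned to -0.21 after median-ratio rescaling, -0.092 after length correction, -0.0041 without vehicle 2 (0.70 without vehicle 3), -0.16 against vehicle 3 and, in settings added after seeing the data, -0.58 centred on the 10 genes and -0.26 centred on translocon genes. Also centred on the 10 genes, Pdia3 was at -0.13, Pdia6 at -0.27 and Dnajc3 at -0.22. Dnajc3 was at -0.021 after length correction, Hyou1 at -0.023 against vehicle 3, and Calr at 0.076 without vehicle 3. The cause was not tested.

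Over all genes limma called 1 higher and 0 lower. It called 0 higher with a pseudocount of 5, with no filter, with a mean of at least 5 TPM and with the replicate block. Median-ratio rescaling gave 1 lower, quantile normalization 4 higher and 1 lower, and length correction 16 higher and 3 lower. The counts were 547 and 765 against vehicle 3, and from 0 to 671 higher and 0 to 51 lower when 1 library was left out, the highest without vehicle 3. Unadjusted p under 0.05 were reached by 1687 of 12092, 2189 of 23429, 722 of 8442 and 1163 of 12092 genes in the 4 fits with 0 called higher named first. Deviations of same-numbered libraries from their group means correlated at -0.013, 0.056 and 0.03, and those of differently numbered ones at -0.079 to 0.053. With treated libraries this alike, such values cannot show whether the replicate numbers pair the libraries. The replicate block left all 10 genes uncalled.

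List medians moved with scaling. After median-ratio rescaling they were 0.14 (other isomerases), -0.084 (oxidation), -0.082 (cofactors), -0.79 (prolyl isomerases), -0.077 (KDEL receptors) and -0.048 (translocon). The remaining lists were then at 1.02 (unfolded protein response), 0.085 (glycan trimming) and 0.087 (cytosolic relatives). After quantile normalization those that moved were 0.32 (other isomerases), 0.019 (cofactors) and -0.35 (prolyl isomerases). After length correction they were 0.28 (other isomerases), 0.020 (cofactors), -0.011 (glycan trimming), -0.65 (prolyl isomerases), 0.72 (unfolded protein response) and -0.021 (cytosolic relatives). Against vehicle 3 they were 0.025 (other isomerases), 0.13 (cofactors), -0.15 (glycan trimming), 0.099 (prolyl isomerases), 0.36 (unfolded protein response), 0.095 (translocon) and -0.21 (cytosolic relatives). With 1 library left out, other isomerases ranged from 0.32 to 1.08, cofactors ranged from 0.12 to 0.79, the unfolded protein response from 0.72 to 2.01 and cytosolic relatives from -0.0089 to 1.06, each lowest without vehicle 2 and highest without vehicle 3. Without vehicle 2 the medians of oxidation (0.057), glycan trimming (0.21), KDEL receptors (0.21) and translocon genes (0.24) were also lower.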
